A study of Mus musculus with 6 samples.

Results

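The mitochondrially encoded respiratory chain mRNAs in RAW264.7 macrophages are described here as 10 genes of the mitochondrial genome, mt-Nd1, mt-Nd2, mt-Nd4, mt-Nd5, mt-Nd6, mt-Cytb, mt-Co1, mt-Co2, mt-Co3 and mt-Atp6. They were chosen by gene symbol from the 49315 genes of the count table, and all 10 were among the 12274 genes that passed the filter on low counts. RAW264.7 is an established mouse macrophage-like line of WT genotype, and SKI-II, the compound under study, is known for blocking sphingosine kinases. Cells received 4 μg/mL of SKI-II or an equal volume of DMSO, the vehicle, for 24 h, and 3 libraries per group were sequenced from oligo(dT)-enriched RNA. The comparison of SKI-II with DMSO asks how gene expression differed in the treated cells. It was made in 1 cell line and at 1 dose and 1 time.

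The mitochondrial genome is a small circle that encodes subunits of respiratory complexes I, III, IV and V together with its own rRNAs and tRNAs. Each strand is transcribed as a long precursor by the mitochondrial RNA polymerase, and cutting at the tRNAs between the genes releases most of the mRNAs, which then receive a short poly(A) tail in the organelle. All the other subunits of these complexes are encoded in the nucleus, made in the cytosol and imported, so that a complex draws on mRNAs of both compartments.

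The libraries held 12495957 to 20050677 gene counts. All 8 macrophage markers examined had at least 100 normalized counts in every library, and of 11 markers of other cell types 5 were at 0 throughout. The macrophage markers summed to 135208 to 200354 normalized counts with DMSO and 68469 to 108657 with SKI-II, with Lyz2 (lysozyme) the largest part in each library. Without Lyz2 the other 7 summed to 45132 to 49780 with DMSO and 44325 to 47374 with SKI-II. Of the 8, Lyz2 (log2 fold change -1.26), Adgre1 (-0.92) and Itgam (-0.93) fell and Fcgr1 (2.17) rose (edgeR adjusted p = 0.0172, 0.00451, 0.00781 and 1.56e-05). The markers of other cell types summed to 51.8 to 82.6 with DMSO and 34.4 to 67.6 with SKI-II. Their part in the results on the mitochondrial mRNAs was not tested. A normalized count here is the count per TMM-scaled library size, brought back to the average of those sizes. In such bulk samples fewer cells of a type and less RNA per cell cannot be told apart.

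The 3′ ends of 6 of these mRNAs are shown because enrichment on oligo(dT) takes RNA by its tail and because some of these reading frames have no full stop codon of their own. Each line gives the last 30 bases of the GENCODE M21 transcript on GRCm38, 5′ to 3′, with the stop codon, or the part of it that is encoded, in capitals.
mt-Nd4: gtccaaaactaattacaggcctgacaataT
mt-Nd5: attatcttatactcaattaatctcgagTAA
mt-Nd6: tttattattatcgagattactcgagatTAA
mt-Cytb: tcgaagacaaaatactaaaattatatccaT
mt-Co1: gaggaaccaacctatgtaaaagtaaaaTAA
mt-Co3: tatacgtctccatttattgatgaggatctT
Among the 10 genes, 7 ended in a complete TAA or TAG and 3 (mt-Nd4, mt-Cytb and mt-Co3) in a single T, which is known to be completed by the added tail. The genes that rose had both kinds of ending, a single T in mt-Nd4 and TAA in mt-Nd5 and mt-Nd6.

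With SKI-II, the summed mitochondrial mRNAs took a larger share of the library in every treated sample. The 10 genes held 1.07%, 1.15% and 1.24% of the gene counts in DMSO replicates 1, 2 and 3, and 1.37%, 1.46% and 1.70% in SKI-II replicates 1, 2 and 3. The groups did not overlap, and among single tested genes 24.2% had a share that was higher in every treated library in the same way. The mean went from 1.15% ± 0.0856 (SD, n = 3) to 1.51% ± 0.170 (SD, n = 3), a ratio of 1.31. The exact permutation test, two-sided, gave p = 0.1, the smallest value that 3 libraries against 3 allow. Most of this sum was mt-Co1, which made up 73.5% ± 7.92 (SD, n = 3) of it with DMSO and 68.3% ± 6.98 (SD, n = 3) with SKI-II (difference of -5.21 percentage points, exact permutation p = 0.4). That difference was -9.65 when DMSO replicate 1 was left out and -2.03 when DMSO replicate 3 was, and it was -9.02 and -2.17 when SKI-II replicate 3 or 2 was left out. By itself mt-Co1 held 0.691% to 0.990% of the library with DMSO and 0.905% to 1.29% with SKI-II, so that the groups overlapped (exact permutation p = 0.4). Without mt-Co1 the other 9 genes went from 0.302% ± 0.0680 to 0.473% ± 0.0713 of the library (SD, n = 3 each), a ratio of 1.57 (exact permutation p = 0.1).

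**Figure D1:**
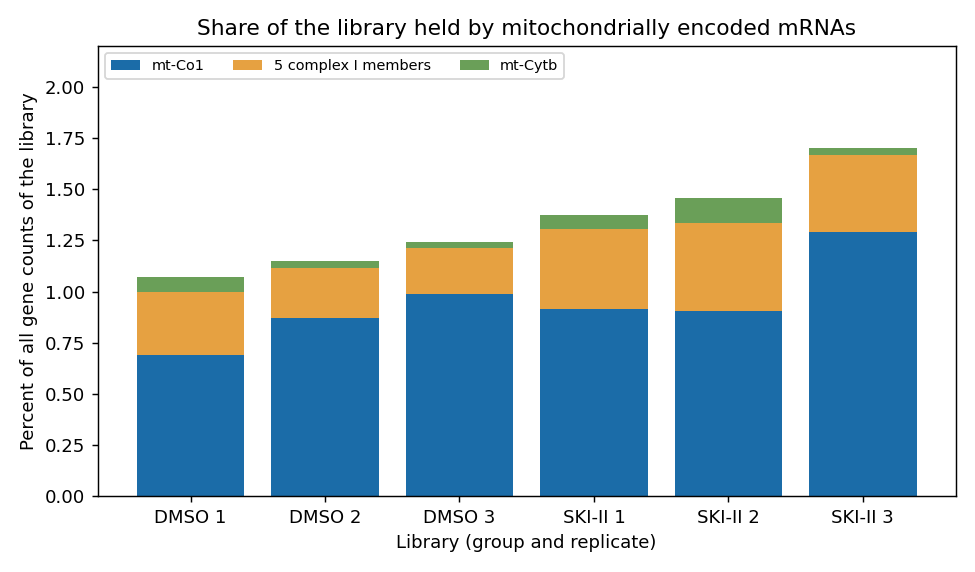
Stacked bars give the percent of all gene counts (vertical axis, from 0) that mt-Co1, the 5 complex I genes and mt-Cytb held in each of the 6 libraries (horizontal axis, group and replicate); mt-Co2, mt-Co3 and mt-Atp6 are too rare to draw. The total was 1.07% to 1.24% in the DMSO libraries and 1.37% to 1.70% in the SKI-II libraries, and mt-Co1 was the largest piece in each.

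In the fit over all tested genes (edgeR, Benjamini-Hochberg adjusted p below 0.05), 3 of the 10 genes rose with SKI-II and none fell. They were mt-Nd4, mt-Nd5 and mt-Nd6, all subunits of complex I. Of all tested genes, 18.4% rose and 19.7% fell by the same rule. At an unadjusted p below 0.05 by edgeR 5 of the 10 were higher and 0 lower, a rule for which the share of all genes was not counted. DESeq2 and limma-voom each called 3 of the 10 higher and 0 lower, beside 4806 and 4662 calls over all genes in both directions. None of the 10 passed a log2 fold change of 1 with that edgeR adjusted p. Upwards 8.28% of tested genes did so, and 7.44% passed downwards at -1. All 10 fitted log2 fold changes were above 0, beside 6166 of the 12274 tested genes. The median of the 10 was 0.64, against 0.00 over all tested genes. Of the 10, mt-Co2, mt-Co3 and mt-Atp6 rest on few counts, and mt-Co3 was below 0 in 2 of 14 alternative fits. In normalized counts, the SKI-II values were all above the DMSO values for 4 of the 10 (mt-Nd4, mt-Nd5, mt-Nd6 and mt-Atp6), beside 24.8% of tested genes.

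**Figure D2:**
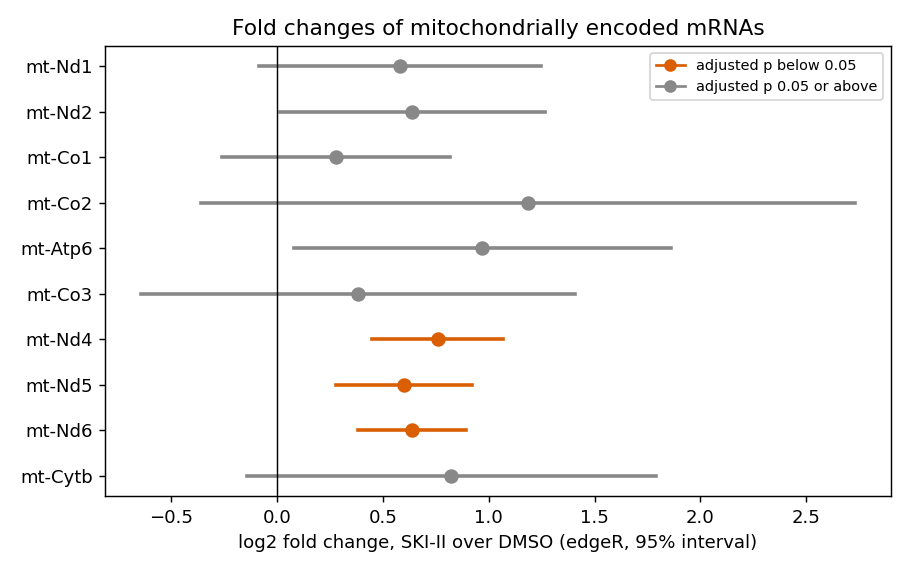
Points give the log2 fold change of SKI-II over DMSO (horizontal axis) for each gene (vertical axis, in order along the mitochondrial genome) and lines its 95% interval, from edgeR with 3 libraries per group; orange marks an adjusted p below 0.05. All 10 points lie above 0, and the 3 orange ones are at 0.76 (mt-Nd4), 0.60 (mt-Nd5) and 0.64 (mt-Nd6).

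Complex I, NADH dehydrogenase, takes electrons from NADH, and the mt-Nd genes encode its core subunits in the membrane, where protons are pumped. The 5 genes together went from 0.259% ± 0.0435 of the library to 0.398% ± 0.0292 (SD, n = 3 each), with no overlap between the groups (ratio 1.54, exact permutation p = 0.1).

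mt-Nd4 (chromosome M, 10167 to 11544, plus strand) encodes an antiporter-like subunit of the proton-pumping arm. It had 6880, 6047 and 5294 normalized counts in DMSO replicates 1 to 3, and 10884, 9769 and 10162 in the SKI-II replicates. All 3 treated libraries were above the highest control. It rose by a log2 fold change of 0.76 (SE 0.14, 95% interval 0.45 to 1.07, edgeR adjusted p = 0.00222), the largest change among the 3 that passed, and kept its call in all 15 alternative fits.

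mt-Nd5 (11742 to 13565, plus strand) encodes a second antiporter-like subunit, at the far end of that arm. Its normalized counts were 20064, 19030 and 20291 with DMSO and 27924, 28815 and 33200 with SKI-II. The control libraries lay close together, with a coefficient of variation of 3.40%, and the treated ones all lay higher. The log2 fold change was 0.60 (SE 0.14, 95% interval 0.28 to 0.92, edgeR adjusted p = 0.00902). Without DMSO replicate 2 it was 0.56 and missed the threshold (edgeR adjusted p = 0.0648). In the other 14 alternative fits its call remained.

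mt-Nd6 (13552 to 14070, minus strand) is the one gene of the 10 on the opposite, light strand, and its last bases overlap the end of mt-Nd5. It had 3790, 3796 and 3935 normalized counts with DMSO and 5730, 5842 and 6344 with SKI-II. It varied least of the 10 in the control group (coefficient of variation 2.14%), and each treated library was above each control. It rose by 0.64 on the log2 scale (SE 0.11, 95% interval 0.38 to 0.89, edgeR adjusted p = 0.00197), with its call kept in all 15 alternative fits. Its count per mt-Nd5 count was nearly fixed, between 0.189 and 0.205 over the 6 libraries. No source used here gives the strand setting of the counting, and reads of mt-Nd6 and of the heavy-strand RNA across from it cannot be told apart.

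mt-Nd1 (2751 to 3707, plus strand) encodes the membrane subunit next to the quinone site. It had 10427, 6100 and 5201 normalized counts with DMSO and 10363, 14911 and 7207 with SKI-II. DMSO replicate 1 stood above 2 of the treated libraries, so the groups overlapped. The log2 fold change of 0.58 (SE 0.30, 95% interval -0.09 to 1.25) did not pass the test (edgeR adjusted p = 0.155).

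mt-Nd2 (3914 to 4951, plus strand), another antiporter-like subunit, had 6075, 3630 and 3522 normalized counts with DMSO and 6576, 9525 and 4508 with SKI-II. DMSO replicate 1 was above SKI-II replicate 3 here too. The log2 fold change was 0.64 (SE 0.28, 95% interval 0.01 to 1.27), as large as that of mt-Nd6, but the spread was wider and it missed the threshold (edgeR adjusted p = 0.1003). mt-Nd2 kept a near-fixed count per mt-Nd1 count, between 0.583 and 0.677.

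Complex III passes electrons from quinol to cytochrome c, and mt-Cytb (14145 to 15288, plus strand) encodes cytochrome b, its only mitochondrially encoded subunit. It had 10858, 4900 and 4412 normalized counts with DMSO and 11236, 18970 and 5508 with SKI-II. Its coefficient of variation, 53.4% with DMSO and 56.8% with SKI-II, was above that of every other gene of the 10 with more than 1000 counts per library. The log2 fold change of 0.82 (SE 0.43, 95% interval -0.14 to 1.79) did not pass the test (edgeR adjusted p = 0.165).

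mt-Nd1, mt-Nd2 and mt-Cytb shared a pattern over the libraries, with the highest DMSO value in replicate 1, the highest SKI-II value in replicate 2 and the lowest SKI-II value in replicate 3. Leaving out DMSO replicate 1 raised their log2 fold changes to 0.92, 0.93 and 1.34, and each then passed the test, as did mt-Atp6 at 1.32. Leaving out SKI-II replicate 3 gave 0.80, 0.87 and 1.17 for the same 3, each again past the test. Leaving out SKI-II replicate 2, their highest treated library, lowered them to 0.28, 0.33 and 0.32, and none passed (edgeR adjusted p = 0.521, 0.390 and 0.608). The number of the 10 called higher thus went from 3 to 7 without DMSO replicate 1, to 6 without SKI-II replicate 3, and to 2 without DMSO replicate 2. Set against mt-Nd5 in the same library, mt-Cytb counts ran from 0.166 to 0.658, the highest being 3.97 times the lowest, while for mt-Nd6 that factor was 1.09. What set these libraries apart was not tested.

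**Figure D3:**
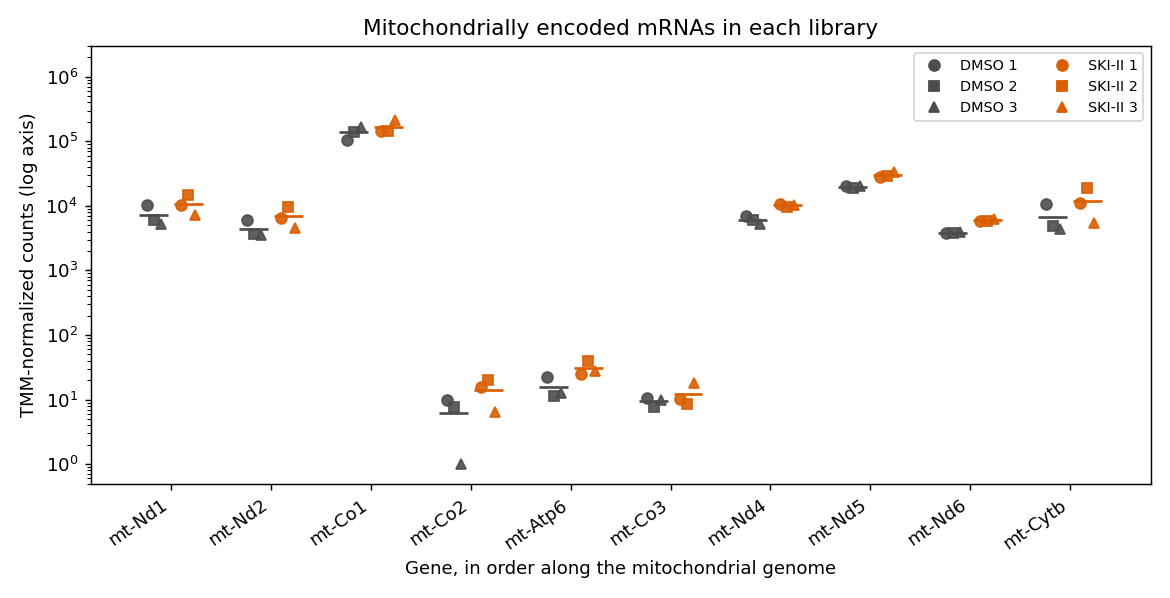
Each point is the TMM-normalized count (vertical axis, log scale) of a gene (horizontal axis, in order along the mitochondrial genome) in 1 library, grey for DMSO and orange for SKI-II, with the shape giving the replicate number and short lines the group means. mt-Nd4, mt-Nd5 and mt-Nd6 are tight and separate by group, whereas mt-Nd1, mt-Nd2 and mt-Cytb spread over the libraries and overlap, and mt-Co2, mt-Co3 and mt-Atp6 lie orders of magnitude lower.

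Complex IV, cytochrome c oxidase, reduces oxygen to water, and mt-Co1, mt-Co2 and mt-Co3 encode its catalytic core. mt-Co1 (5328 to 6872, plus strand), which carries the oxygen-reducing site, had 106079, 137799 and 168874 normalized counts with DMSO and 145792, 144639 and 210815 with SKI-II. DMSO replicate 3 stood above SKI-II replicates 1 and 2, and replicate 3 was the highest of each group. Its log2 fold change was 0.28 (SE 0.24, 95% interval -0.26 to 0.82), which did not pass the test (edgeR adjusted p = 0.394). It was 0.076 without SKI-II replicate 3, 0.11 without DMSO replicate 1 and 0.45 without DMSO replicate 3, and passed in none of these. Its count per mt-Nd5 count was 6.95 ± 1.54 with DMSO and 5.53 ± 0.717 with SKI-II (SD, n = 3 each, exact permutation p = 0.2), with the groups overlapping.

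The other subunits of this core were nearly without counts. mt-Co2 (7013 to 7696, plus strand), which receives electrons from cytochrome c, had raw counts of 10, 6 and 1 with DMSO and 14, 21 and 8 with SKI-II. mt-Co3 (8607 to 9390, plus strand) had 11, 6 and 10 with DMSO and 9, 9 and 22 with SKI-II. These numbers are too small for a firm comparison, and the log2 fold changes of 1.18 (SE 0.69, edgeR adjusted p = 0.195) and 0.38 (SE 0.46, edgeR adjusted p = 0.542) did not pass. Without SKI-II replicate 3 the value of mt-Co3 was -0.028, so its direction rests on that library.

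Complex V, the ATP synthase, uses the proton gradient to make ATP, and mt-Atp6 (7927 to 8607, plus strand) encodes the subunit that forms its proton path. It had raw counts of 23, 9 and 13 with DMSO and 22, 42 and 34 with SKI-II, and in normalized counts the means were 15.5 ± 5.95 and 30.8 ± 8.18 (SD, n = 3 each). The groups did not overlap after scaling, but the log2 fold change of 0.97 (SE 0.40, 95% interval 0.08 to 1.86) missed the threshold (edgeR adjusted p = 0.0791). mt-Atp6 overlaps mt-Atp8, and its last base is the first of mt-Co3.

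Per length, the 10 genes were far from even. In CPM per kb of gene (TMM-scaled, mean ± SD over the 3 DMSO libraries), mt-Co1 stood at 5551 ± 1267. mt-Nd5 followed at 676 ± 23.0, then mt-Nd1 at 472 ± 182, mt-Nd6 at 461 ± 9.87, mt-Cytb at 366 ± 196, mt-Nd4 at 275 ± 35.9 and mt-Nd2 at 265 ± 86.7. From mt-Nd1 down to mt-Nd2 in this order, each mean differed from the next by less than the larger SD of the pair. mt-Atp6, mt-Co3 and mt-Co2 had 1.42, 0.747 and 0.555, although mt-Atp6, mt-Co2 and mt-Co3 lie between mt-Co1 and mt-Nd4 on the same strand.

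The 3 genes with almost no counts have a near-identical copy in the nuclear genome over nearly their whole length. Among GENCODE M21 transcripts, 7 such copies lie side by side on chromosome 1, minus strand, within 4663 bases from 24611535 to 24616197 (GRCm38). There Gm28661 matched mt-Co2 at 100% over 681 bases, Gm10925 matched mt-Atp6 at 100% over 678 bases and Gm28437 matched mt-Co3 at 100% over 783 bases. The same stretch holds Gm28439, equal to the first 876 bases of mt-Nd4, and Gm29216, 99.8% identical to the last 483 bases of mt-Co1. At 99% identity or more the copies covered 99.6% of mt-Co2, 99.6% of mt-Atp6, 99.9% of mt-Co3, 63.6% of mt-Nd4, 31.3% of mt-Co1 and 0% of the other 5. mt-Atp8, which also had few counts (3 to 13 per library), had no such copy among these transcripts, and sequence between the transcripts was not searched. How reads that map to several places were counted is not stated in the sources used here, and the part of the copies in these low counts was not tested.

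A stretch of 60 bases from a few of these pairs is shown, since the likeness of the letters decides whether a read can be placed. Bases are numbered from the transcript's 5′ end, and capitals mark the positions where the pair differs. The first pair is bases 1 to 60 of both transcripts, the second bases 1063 to 1122 of mt-Co1 and 10 to 69 of Gm29216, and the third bases 460 to 519 of mt-Co1 and of Gm13340, a copy on chromosome 2 that is 97.6% identical over the 1545 bases.
mt-Co2: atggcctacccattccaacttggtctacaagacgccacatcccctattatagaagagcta
Gm28661: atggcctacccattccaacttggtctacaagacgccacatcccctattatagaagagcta
mt-Co1: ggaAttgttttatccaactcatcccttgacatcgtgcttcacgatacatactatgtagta
Gm29216: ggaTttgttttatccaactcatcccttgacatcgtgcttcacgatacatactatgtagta
mt-Co1: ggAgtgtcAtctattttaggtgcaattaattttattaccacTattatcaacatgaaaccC
Gm13340: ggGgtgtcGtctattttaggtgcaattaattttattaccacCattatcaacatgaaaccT
The windows of mt-Co2 hold no difference, those with Gm29216 hold 1 and those with Gm13340 hold 4. If no read inside a near-identical copy was counted, which was not tested, the whole-gene counts divided by the length outside the copies would put mt-Co1 at 8076 ± 1843 with DMSO and mt-Nd4 at 754 ± 98.5 (SD, n = 3 each), against 5551 and 275 over the whole gene, beside 676 ± 23.0 for mt-Nd5.

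**Figure D4:**
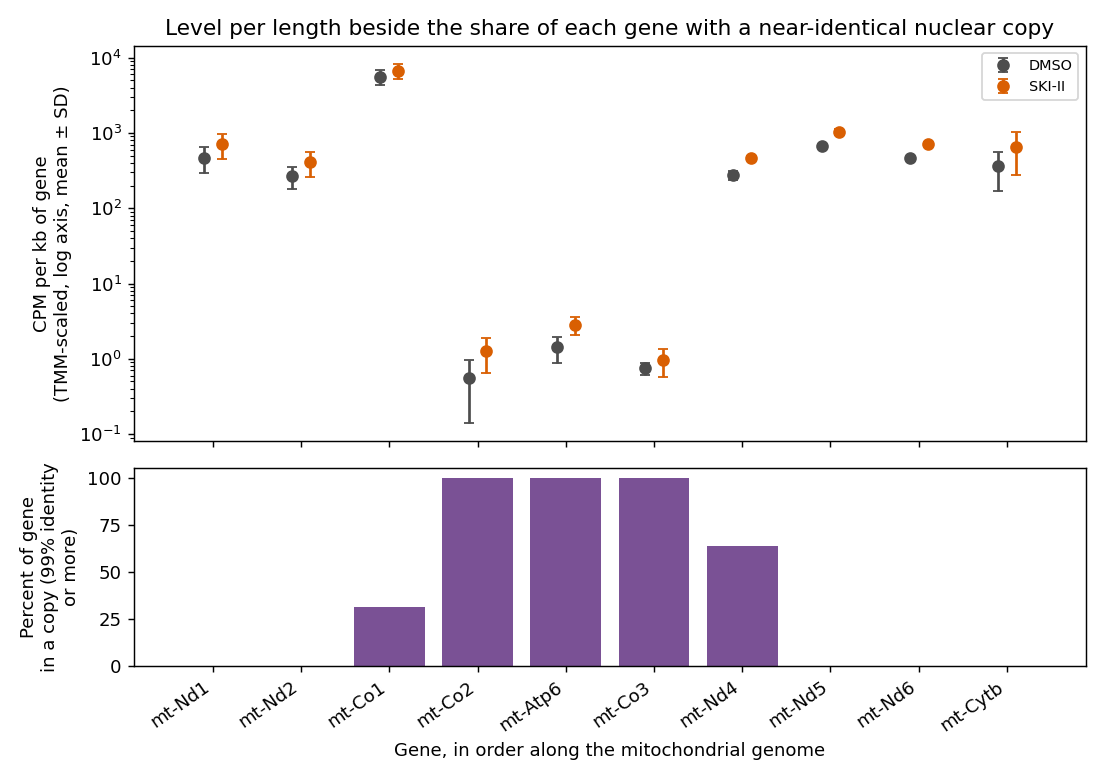
The upper panel gives CPM per kb of gene (log axis, TMM-scaled, points are means and bars the SD of 3 libraries, grey DMSO and orange SKI-II), and the lower panel the percent of each gene covered by a nuclear copy of at least 99% identity. The 3 genes covered over 99.6% or more of their length, mt-Co2, mt-Atp6 and mt-Co3, stand at 0.555 to 1.42 with DMSO, and the 5 without such a copy at 265 to 676.

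The copies themselves had few counts too. Gm10925 had 27.1 ± 7.47 normalized counts with DMSO and 27.7 ± 8.68 with SKI-II, Gm28437 had 43.4 ± 8.90 and 28.2 ± 4.97, and Gm28661 had 8.01 ± 6.08 and 10.9 ± 5.27 (SD, n = 3 each). None of these 3 passed the test (edgeR adjusted p = 0.929, 0.154 and 0.661). With the counts of its copy added, mt-Co3 had a log2 fold change of -0.38 (edgeR adjusted p = 0.358), a negative value in place of the positive one. In the same fit mt-Atp6 went from 0.97 to 0.46 (edgeR adjusted p = 0.274) and mt-Co2 from 1.18 to 0.82 (edgeR adjusted p = 0.362). With its copy added, mt-Atp6 had 47.6, 46.8 and 33.7 normalized counts with DMSO and 42.5, 74.4 and 58.7 with SKI-II, so that the groups overlapped.

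Of the other 25 mitochondrially encoded genes in the table, the protein-coding mt-Nd3, mt-Nd4l and mt-Atp8 had 1 to 13 counts per library and were not tested. The rRNAs, which are not among these 25, were not analysed here. The 22 tRNAs, which the enrichment for tails should mostly leave behind, held 0.00428% of the library with DMSO and 0.00430% with SKI-II (ratio 1.01, exact permutation p = 0.9), against a ratio of 1.31 for the mRNAs. Of 8 tRNAs tested, none was called higher and 1 lower, beside 18.4% and 19.7% of all tested genes. This was mt-Tl2, one of the leucine tRNAs, which lies just before mt-Nd5, with raw counts of 47, 56 and 48 with DMSO and 29, 26 and 26 with SKI-II. It fell (log2 fold change -1.06, SE 0.33, edgeR adjusted p = 0.0275), and missed the threshold when DMSO replicate 2, or replicate 2 or 3 of SKI-II, was left out (edgeR adjusted p up to 0.127). mt-Tp, the proline tRNA and the most counted, had 257 to 658 counts and a log2 fold change of 0.27 that did not pass (edgeR adjusted p = 0.356). All 22 tRNAs together had 480 to 965 counts per library, so their summed share leans on mt-Tp.

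Many nuclear-encoded partners of these mRNAs were lower with SKI-II. Of 71 nuclear genes for subunits of complexes I, III, IV and V, 39 fell and 0 rose (edgeR), with a median log2 fold change of -0.46, while 19.7% of all tested genes fell and 18.4% rose. At an unadjusted p below 0.05 by edgeR, for which the share of all genes was not counted, 44 were lower and 0 higher. DESeq2 and limma-voom also called 39 lower and 0 higher. By complex, 13 of 36 fell in complex I, 8 of 9 in complex III, 9 of 11 in complex IV and 9 of 15 in complex V. Without DMSO replicate 2 the complex I count was 6 and that of complex III 5. Among them was Ndufa9, an accessory subunit of complex I (log2 fold change -0.80). Uqcrfs1, the Rieske iron-sulfur protein of complex III, fell (log2 fold change -0.89), as did Uqcrh (-0.79). Cox7c and Cox7a2, small subunits of complex IV, fell as well (-0.85 and -0.78). In complex V, Atp5a1, the alpha subunit of the catalytic head, fell (-1.08, SE 0.15, edgeR adjusted p = 0.000587), and so did Atp5g3, which encodes the c subunit of the rotor ring (-0.94).

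Set against the nuclear subunits of the same complex in the same library, which needs no scaling between libraries, the mitochondrial mRNAs were higher with SKI-II for complexes I and IV in every treated library. This ratio was chosen after the fold changes were seen. For complex I there were 1220, 919 and 795 mitochondrial counts per 1000 nuclear subunit counts with DMSO and 2120, 2104 and 1748 with SKI-II, a fold of 2.06. For complex IV, which mt-Co1 made up almost alone, the values were 4342, 5058 and 5270 against 8504, 7162 and 9548, a fold of 1.71. The groups did not overlap for either (exact permutation p = 0.1 each, Benjamini-Hochberg adjusted over the 4 complexes 0.133). For complex III, 615, 260 and 209 stood against 944, 1380 and 368 (fold 2.43, exact permutation p = 0.2), and DMSO replicate 1 was above SKI-II replicate 3. For complex V, where only the few counts of mt-Atp6 enter, the ratio rested on 0.147 to 0.314 with DMSO and 0.542 to 0.859 with SKI-II, and no comparison is drawn from it. The means of the 2 sides differed in direction. The nuclear sums were at 0.752, 0.705 and 0.710 times their DMSO mean for complexes I, III and IV, and the mitochondrial sums at 1.55, 1.77 and 1.21 times. As shares of the library, the mitochondrial sums kept the groups apart for complex I only. Those of complex III (mt-Cytb) and complex IV (exact permutation p = 0.4) overlapped between the groups.

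**Figure D5:**
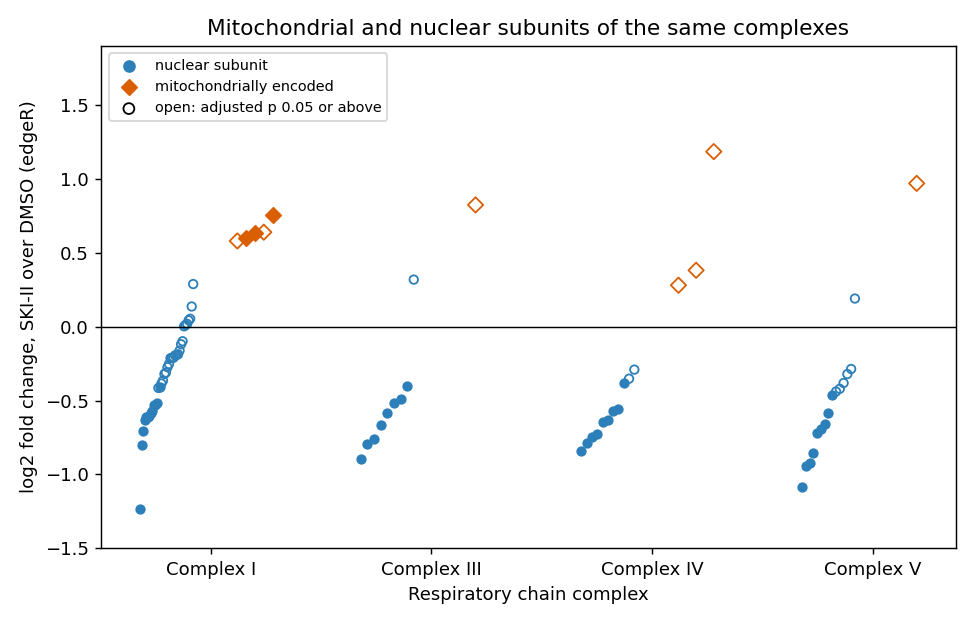
Log2 fold changes of SKI-II over DMSO (vertical axis, edgeR) are drawn for the nuclear subunits (blue circles) and the mitochondrially encoded subunits (orange diamonds) of complexes I, III, IV and V (horizontal axis), filled where the adjusted p is below 0.05. Filled blue circles lie below 0 in each complex, 39 of 71 in all, and the 3 filled diamonds lie above 0 in complex I.

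Genes that maintain and express the mitochondrial genome held calls in both directions. Of 24 genes for maintenance and transcription of mitochondrial DNA, 3 rose and 5 fell (median log2 fold change -0.03), beside 18.4% and 19.7% of all tested genes. The count of genes that fell was 2 without SKI-II replicate 1 and 8 without SKI-II replicate 3. Tk2, the mitochondrial thymidine kinase, had 438, 440 and 433 normalized counts with DMSO and 1260, 970 and 1110 with SKI-II, and rose by 1.35 on the log2 scale (SE 0.13, edgeR adjusted p = 7.12e-05). Tefm, the elongation factor of the mitochondrial polymerase, rose by 0.97 on that scale (SE 0.26, edgeR adjusted p = 0.0149), a call lost without DMSO replicate 2 or SKI-II replicate 2. Tfb2m, which opens the promoter for that polymerase, fell (log2 fold change -0.95, SE 0.26, edgeR adjusted p = 0.0172), a call lost without SKI-II replicate 1, and Mgme1, a mitochondrial exonuclease, fell too (-0.83). Chosen after their values were seen, Polrmt, the polymerase itself, had a log2 fold change of -0.39 (edgeR adjusted p = 0.0387, lost in 4 of 15 alternative fits) and Tfam, which packages the genome, one of -0.13 (edgeR adjusted p = 0.497).

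Of 29 genes for processing and stability of mitochondrial RNA, 4 rose and 5 fell, with a median log2 fold change of 0.00, again beside 18.4% and 19.7% of all tested genes. None rose without DMSO replicate 2 or without SKI-II replicate 2, and 2 fell without SKI-II replicate 2. Slirp, whose protein binds mitochondrial mRNAs together with Lrpprc, rose by 0.54 on the log2 scale (SE 0.14, edgeR adjusted p = 0.0150), a call lost without either of these libraries. Lrpprc itself, named after its value was seen, had a log2 fold change of -0.07 (edgeR adjusted p = 0.680). Angel2 rose by 0.68 on that scale with an edgeR adjusted p of 0.0493 and lost its call in 6 of 15 alternative fits. Rpusd4, a pseudouridine synthase of mitochondrial RNA, fell (log2 fold change -1.18, SE 0.22, edgeR adjusted p = 0.00258), as did Fastkd1, an RNA-binding protein of the organelle (-0.65).

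Of 14 mitochondrial translation factors, 1 rose and 5 fell, where 18.4% and 19.7% of all tested genes did. The count that rose was 2 with DESeq2, with limma-voom, with RLE scaling, with the replicate block and without DMSO replicate 1. Mtif2, the initiation factor, rose by 0.63 on the log2 scale (SE 0.12, edgeR adjusted p = 0.00291), while Gfm1, an elongation factor, fell (log2 fold change -1.04, SE 0.12, edgeR adjusted p = 0.000150), as did Oxa1l, which inserts the new proteins into the inner membrane (-0.81). Of 8 tested nuclear regulators of mitochondrial genes 3 fell and 0 rose by edgeR, with 19.7% of all tested genes called lower and 18.4% higher. DESeq2 gave 3 lower and 0 higher, as did an unadjusted p below 0.05, for which the share of all genes was not counted. The genes that fell included the coactivator Ppargc1b (-0.97, SE 0.15, edgeR adjusted p = 0.00103) and Gabpa, a subunit of a transcription factor of respiratory genes (-0.52).

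The nuclear genes whose profile over the 6 libraries was most like that of the summed 10 genes were Ttc37, Rab10, Xbp1, Casp1 and Coa4. Their centred log2 values differed from it by a root mean square of 0.0283, 0.0362, 0.0369, 0.0391 and 0.0467, the smallest among 12256 genes. Their own log2 fold changes were 0.39, 0.37, 0.35, 0.36 and 0.45, and none passed the test (edgeR adjusted p of 0.0538 to 0.106). Most of the sum is mt-Co1, so the likeness is mainly to that gene. The profile holds the group difference, so positive fold changes follow from how these genes were chosen.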

How the data were processed

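RNA-seq counts of 6 RAW264.7 libraries were used, 3 with SKI-II and 3 with DMSO, grouped by their labels. The table used here, as deposited by the authors, holds raw read counts per Ensembl gene that were not normalized. The submitters' processing notes name Trimmomatic 0.36, STAR 2.5.2b, featureCounts, Subread 1.5.2 and DESeq2. The genome build, annotation, strand setting and handling of reads mapping to several places are not stated in the sources used here. Each of these can shift the counts of mitochondrial genes. All columns were used. Names (48970 of 49315 identifiers) and positions come from GENCODE M21.

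Counts were tested with the quasi-likelihood test of edgeR 4.0.16 (R 4.3.3) on group alone, with TMM scaling, the default expression filter (minimum count 10, minimum total 15) and Benjamini-Hochberg adjustment over 12274 genes, beside DESeq2 1.42.0 and limma-voom 3.58.1. Shares and ratios were tested by exact permutation, two-sided (scipy 1.17.1). Counting programs were tested on simulated data. Nuclear copies were sought with blastn 2.17.0 among GENCODE M21 transcripts (identity of at least 95%, 100 bases or more), in place of a search of the genome. The transcript sequences are those of GENCODE.

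The members and lists were chosen with earlier results of these data known. Named are all mitochondrially encoded genes that bear on a result, in each list the 2 called genes with the largest rise and the 2 with the largest fall, the 5 nuclear genes most like the summed members, and copies with a mean of 10 counts. The result of 1 gene that this rule selects is not reported here. Gm28661, Gm28439, Polrmt, Tfam and Lrpprc were named after their values were seen. The paper refers to its qPCR methods for treatment and RNA extraction, and these state biological replicates for each condition. The labels do not say that libraries came from separate cultures, so p-values measure only the spread between these samples, which may be technical. No pair within a group was a duplicate.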

Additional observations from a re-analysis of the deposited data

How the results depend on the processing

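The summed share of the 10 mRNAs kept its direction under every alternative, with a ratio of 1.31 to 1.35 for other denominators and 1.23 to 1.37 with 1 library left out. Of the 10 genes, 3 were called higher, against 6 with no filter on low counts (mt-Nd1, mt-Nd2 and mt-Cytb added) and 2 to 7 with 1 library left out. Beyond a log2 fold change of 1 there were 0, and 0 to 2 with 1 library left out. The direction of mt-Co3 turned to -0.028 without SKI-II replicate 3 (range -0.028 to 0.58 with 1 library left out) and to -0.38 with its near-identical copy added, an alternative chosen after seeing the data. Its cause beyond the few counts was not tested. With a minimum of 10 counts in every library, mt-Co2, mt-Co3 and mt-Atp6 gave no value. List genes called higher numbered 8 in the report's fit and 3 to 10 with 1 library left out. Those called lower numbered 57 and 39 to 63. The replicate number as a block gave 14 list genes higher and 64 lower, 4 of the 10 mRNAs higher (mt-Nd2 added, edgeR adjusted p = 0.0452), 5584 calls in all against 4668, and a share ratio of 1.31 (exact permutation p = 0.25 within pairs). Same-numbered libraries correlated at 0.246, 0.00994 and 0.458 in their deviations from the group means. Differently numbered ones ran from -0.462 to 0.296, the highest being DMSO replicate 1 with SKI-II replicate 2. Whether the numbers pair the samples cannot be decided from these values, and the main fit used group alone. Scaling choices moved the median of all genes by less than 0.02 on the log2 scale. The counts of mt-Co2, mt-Co3, mt-Atp6, mt-Nd3, mt-Nd4l and mt-Atp8 are too few to allow a comparison, and why they are few was not tested.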

Other observations

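Of 11 annotated nuclear copies of mitochondrial genes 7 were tested, and 1 of them passed, beside 19.7% of all tested genes that were called lower. This was Gm10222, a copy of mt-Nd4l at 100% over 294 bases, with raw counts of 38, 21 and 16 with DMSO and 5, 16 and 8 with SKI-II, so that it met the filter on low counts mainly through the DMSO group. It had 36.9, 26.5 and 15.8 normalized counts with DMSO and 5.59, 15.3 and 6.52 with SKI-II, with no overlap between the groups, and fell (log2 fold change -1.52, SE 0.51, edgeR adjusted p = 0.0367). It missed the threshold in 4 of 13 alternative fits, without DMSO replicate 1 or 2 or SKI-II replicate 1 or 3 (edgeR adjusted p up to 0.129). Gm28438, a copy of mt-Nd3, had 136 ± 52.0 normalized counts with DMSO and 77.9 ± 13.1 with SKI-II (SD, n = 3 each, log2 fold change -0.80, edgeR adjusted p = 0.0567). It had more counts than mt-Nd3 itself in every library. The 2 copies of mt-Co1, Gm29216 and Gm13340, had log2 fold changes of 0.21 and 0.23 that did not pass (edgeR adjusted p = 0.705 and 0.645). Reads of these copies and of the mitochondrial genes cannot be told apart from the counts alone.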
